A study of Mus musculus with 6 samples.

Results

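The 10 genes described here encode TGF-beta ligands (Tgfb1, Tgfb2, Tgfb3), the related ligand BMP4 (Bmp4), the type I and type II TGF-beta receptors (Tgfbr1, Tgfbr2), the signal carrier SMAD3 (Smad3) and the negative regulators SMAD6, SMAD7 and SnoN (Smad6, Smad7, Skil). They were taken by gene symbol from a table of 56691 genes, in which each symbol occurred once. Of the 10, 9 passed the filter of a mean of 0.5 FPKM (fragments per kilobase of exon, scaled to the total of the library) and were tested. The libraries came from 4T1 cells, a mouse mammary carcinoma line grown in complete RPMI 1640 medium, and held polyadenylated RNA. There were 3 libraries of cells given KIRA6 at 1 µmol/L for 4 h and 3 of cells given Vehicle for 4 h, whose composition the labels do not state. KIRA6 was made as an inhibitor of IRE1α, a kinase and RNase of the unfolded protein response. The cells were cultured alone, from 1 line, so the values describe tumour cells without a host.

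TGF-beta ligands are secreted in a latent form and must be released from a latency complex before they bind. A bound ligand joins the type II receptor to the type I receptor, which phosphorylates SMAD2 and SMAD3, and these enter the nucleus with SMAD4 to act on target genes. BMPs use related receptors and SMAD1 and SMAD5. The pathway induces its own inhibitors, among them SMAD6, SMAD7 and SnoN. In mammary epithelium TGF-beta is known as a brake on growth and, in carcinoma cells, as an inducer of mesenchymal traits.

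The libraries held an estimated 18221950 to 21358050 fragments with KIRA6 and 16501950 to 18587700 with Vehicle. Mitochondrial genes took 2.66% to 3.25% of the fragments with KIRA6 and 1.75% to 2.03% with Vehicle, without overlap, and their part in the results was not tested. Vehicle replicate 3 and KIRA6 replicate 1 stood apart from the rest of their groups on the second principal component, which held 35.1% of the variance. Epithelial markers summed to 1615 to 1717 FPKM with KIRA6 and 1298 to 1417 FPKM with Vehicle, and 7 of 8 averaged at least 1 FPKM, with Krt5 at 0. Of 6 fibroblast markers 1 (Pdgfra) and of 7 haematopoietic markers 1 (Cd68) averaged at least 1 FPKM, and of 4 endothelial markers none did. Fibroblast markers summed to 1.85 to 3.76 FPKM with KIRA6 and 0.440 to 0.750 FPKM with Vehicle, and haematopoietic markers to 3.82 to 4.30 FPKM with KIRA6 and 1.74 to 3.0 FPKM with Vehicle. Endothelial markers summed to 0.020 to 0.040 FPKM with KIRA6 and 0.020 to 0.060 FPKM with Vehicle. Ptprc was at most 0.010 FPKM, Cd3e, Adgre1 and Lum were at 0 in every library, and the part of these markers in the results was not tested.

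Tgfb3 was the only member called, and the others were not shown to be unchanged. Of the 9 tested members 1 rose and 0 fell at an adjusted p below 0.05 in limma, against 23.6% of all 11778 tested genes called in either direction, 15.6% higher and 7.98% lower. With no filter on low values limma called 10.4% of 22295 genes, and of the members again 1, Tgfb3. At an unadjusted p below 0.05 in limma there were 5 more members, Tgfb2, Smad6, Smad3 and Skil with higher and Smad7 with lower values. Skil had the largest p of these (0.0377 in limma) and ranked 4065 by p among the 11778 tested genes. At least 4065 of all tested genes therefore passed this threshold, so the 5 are no trait of the pathway. The median log2 fold change of the 9 was 0.38, beside 0.16 for all tested genes. Of all calls 66.2% were higher with KIRA6, against 47.4% with median-ratio scaling and 48.9% with quantile normalization. The groups did not overlap for 5 of the 9 (Tgfb3, Tgfbr1, Smad3, Smad7 and Skil), against 41.8% of all tested genes. RNA of pooled cells cannot tell a change in every cell from a change in the number of cells that express a gene.

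**Figure D1:**
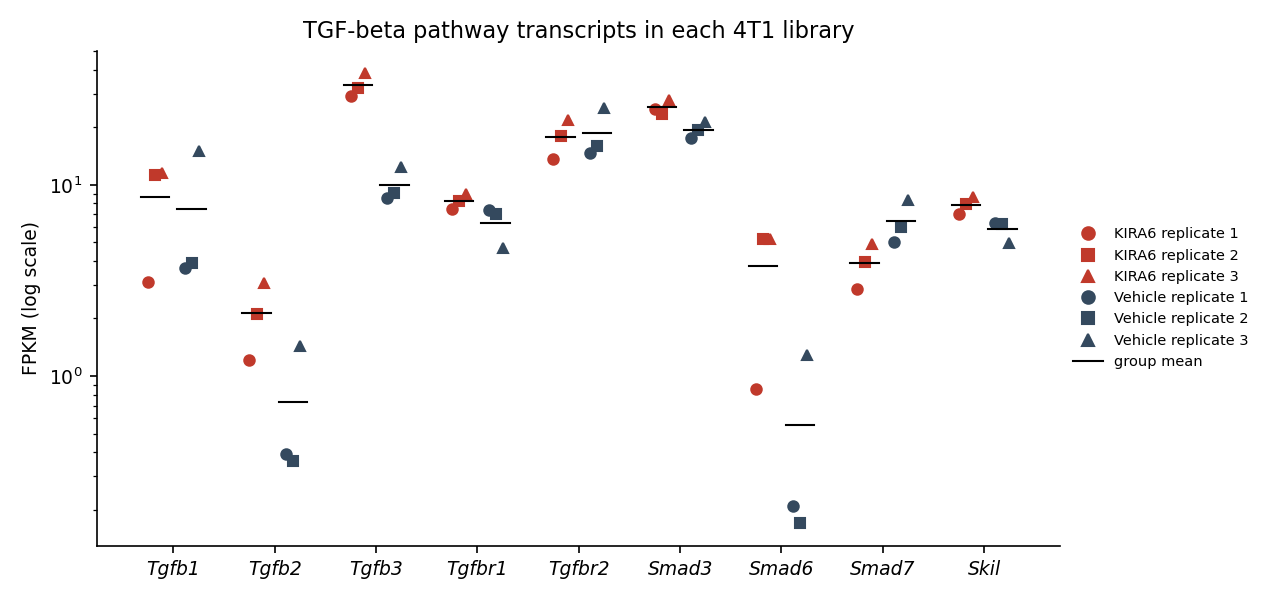
FPKM (log scale) of the 9 members above 0 in each library; red symbols are KIRA6, dark symbols Vehicle, symbol shape gives the replicate and bars are group means. Tgfb3 lies at 29.1 to 38.3 FPKM with KIRA6 and 8.48 to 12.4 FPKM with Vehicle, while KIRA6 replicate 1 lies below Vehicle replicate 3 for Tgfb1 and Smad6.

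Tgfb3 (ENSMUSG00000021253, chromosome 12, 86103519 to 86125815 on GRCm39, minus strand), one of the TGF-beta isoforms, had 29.1, 32.0 and 38.3 FPKM in KIRA6 replicates 1, 2 and 3, against 8.48, 9.03 and 12.4 FPKM in Vehicle replicates 1, 2 and 3. Every KIRA6 library lay above every Vehicle library by more than the spread within either group. The means were 33.1 ± 4.73 FPKM with KIRA6 and 9.97 ± 2.12 FPKM with Vehicle (SD, n = 3 each). The log2 fold change was 1.69 ± 0.19 (SE, limma adjusted p = 0.00204), a 3.32-fold ratio of means. The values rest on an estimated 1971 to 2572 fragments with KIRA6 and 504 to 779 with Vehicle. Tgfb3 was called in all 18 alternative settings, with log2 fold changes of 1.51 to 1.94. With Vehicle replicate 3 and KIRA6 replicate 1 both left out, Tgfb3 had the largest of these, 1.94. Ttll5 overlaps Tgfb3 on the opposite strand, with 2.34 to 2.51 FPKM with KIRA6 and 1.84 to 2.17 FPKM with Vehicle, and the strand setting of the counting is not given in the sources used here.

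Tgfb1 (chromosome 7, 25386427 to 25404502), the isoform best known from tumours and immune cells, split within each group instead. It had 3.11, 11.2 and 11.5 FPKM in KIRA6 replicates 1, 2 and 3, against 3.66, 3.91 and 14.9 FPKM in the Vehicle replicates. KIRA6 replicate 1 was the lowest of all 6 libraries and Vehicle replicate 3 the highest. The log2 fold change of 0.28 ± 0.66 (SE, limma adjusted p = 0.800) lay within the spread between libraries, with an unadjusted 95% interval of −1.30 to 1.87. Without both of these libraries, left out because they stood apart, it was 1.47 (limma adjusted p = 7.55e-05; 18 alternatives gave 7.55e-05 to 0.999). That fit, which by its construction has less spread within groups, called 56.1% of all tested genes.

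Tgfb2 (chromosome 1, 186354989 to 186438186), the least abundant of the TGF-beta isoforms here, had 1.21, 2.12 and 3.05 FPKM in the KIRA6 replicates, against 0.390, 0.360 and 1.44 FPKM in the Vehicle replicates. Vehicle replicate 3 lay above KIRA6 replicate 1, so the groups overlapped. Its log2 fold change was 1.14 ± 0.40 (SE, limma adjusted p = 0.0831), and 34 to 155 fragments stood behind the Vehicle values. It was called without Vehicle replicate 3 (log2 fold change 1.52, adjusted p = 0.0156; 18 alternatives gave 3.009e-07 to 0.236). Bmp4, a ligand of the BMP branch, was at 0 in all 6 libraries. A count of 0 allows up to 3 fragments, or 0.0625 to 0.0732 FPKM in the KIRA6 and 0.0718 to 0.0809 FPKM in the Vehicle libraries, for counting error only.

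The summed FPKM of the TGF-beta isoforms was 33.4, 45.3 and 52.9 in the KIRA6 replicates, against 12.5, 13.3 and 28.8 in the Vehicle replicates. The sums did not overlap between groups (exact permutation test, two-sided, p = 0.1, the smallest that 3 against 3 libraries allow). Tgfb3 alone had at least 29.05 FPKM in each KIRA6 library, above the largest Vehicle sum (28.77 FPKM). This fixed the outcome, so the sum adds no separate evidence. Tgfb3 made up 87.1%, 70.6% and 72.4% of the sum in the KIRA6 replicates, against 67.7%, 67.9% and 43.1% in the Vehicle replicates. Its share was 17.1 percentage points higher with KIRA6 on average (exact permutation test, two-sided, p = 0.1). It was the most abundant isoform in 5 of 6 libraries, and in Vehicle replicate 3 Tgfb1 took 51.9%. Without Vehicle replicate 3 and KIRA6 replicate 1 the difference in share was 3.71 percentage points.

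**Figure D2:**
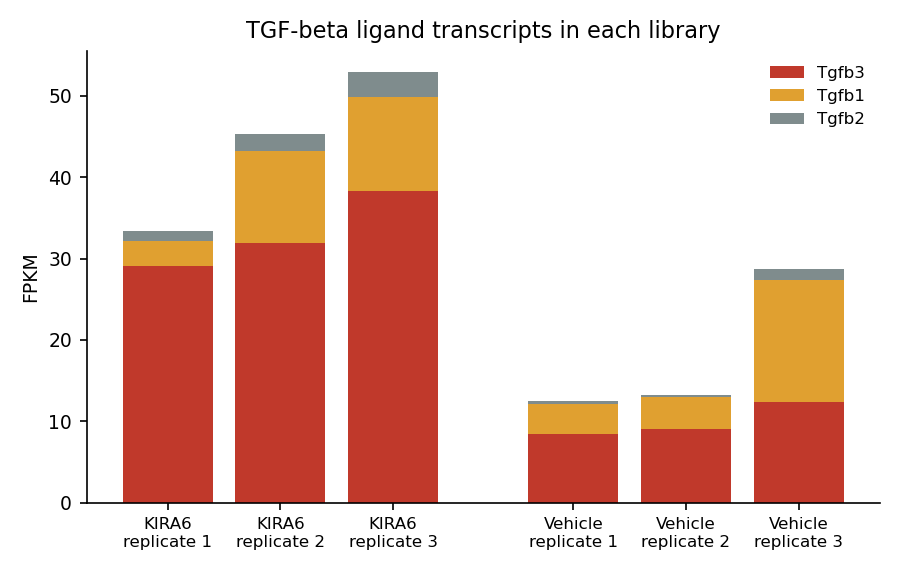
Stacked FPKM of Tgfb3, Tgfb1 and Tgfb2 in each library, KIRA6 on the left and Vehicle on the right. The KIRA6 columns reach 33.4 to 52.9 FPKM and the Vehicle columns 12.5 to 28.8 FPKM, and Vehicle replicate 3 holds the largest Tgfb1 part.

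Neither receptor was called. Tgfbr1 (chromosome 4, 47353222 to 47414931), the type I receptor kinase, had 7.51, 8.21 and 8.98 FPKM in the KIRA6 replicates, against 7.34, 7.0 and 4.69 FPKM in the Vehicle replicates. The lowest KIRA6 library exceeded the highest Vehicle library by 2.3%, and the log2 fold change was 0.37 ± 0.19 (SE, limma adjusted p = 0.216). Tgfbr1 was called in 1 of 18 alternatives, with library weights. Tgfbr2 (chromosome 9, 115913361 to 116004428), the type II receptor that binds ligand first, had 13.7, 18.0 and 21.9 FPKM in the KIRA6 replicates, against 14.6, 16.02 and 25.2 FPKM in the Vehicle replicates. The groups overlapped throughout, with a log2 fold change of −0.043 ± 0.26 (SE, limma adjusted p = 0.929) and an unadjusted 95% interval of −0.66 to 0.57. Its sign turned with library weights (0.16), when Vehicle replicate 3 (0.19) or KIRA6 replicate 1 (0.13) was left out, and without both (0.36, adjusted p = 0.0483; 18 alternatives gave 0.0223 to 0.938). Tgfbr2 transcripts exceeded Tgfbr1 transcripts 2.15 ± 0.305-fold with KIRA6 and 3.22 ± 1.88-fold with Vehicle (SD, n = 3 each), by FPKM. These ratios did not differ beyond their spread (exact permutation test, two-sided, p = 0.5).

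Smad3 (chromosome 9, 63554049 to 63665276), the SMAD that carries the TGF-beta signal to DNA, was among the more abundant members. It had 25.0, 23.5 and 27.8 FPKM in the KIRA6 replicates, against 17.6, 19.4 and 21.3 FPKM in the Vehicle replicates. The groups did not overlap, and the log2 fold change of 0.38 ± 0.14 (SE) missed the threshold (limma adjusted p = 0.0890). Median-ratio scaling of the libraries, which brought the median of all genes from 0.16 to −0.008, gave 0.19 for Smad3. It was called in 3 of 18 alternatives (library weights, the replicate block and without the pair of libraries that stood apart). Its adjusted p lay between 0.000194 and 0.364.

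The inhibitory SMADs differed in sign, and neither was called. Smad7, which blocks the type I receptor and recruits ubiquitin ligases to it, had 2.84, 3.95 and 4.89 FPKM in the KIRA6 replicates, against 5.03, 6.02 and 8.34 FPKM in the Vehicle replicates. All KIRA6 libraries lay below all Vehicle libraries, by a narrow gap, with a log2 fold change of −0.66 ± 0.25 (SE, limma adjusted p = 0.1004). Smad7 was called lower with median-ratio scaling (−0.84, adjusted p = 0.0489) and quantile normalization (−0.88, adjusted p = 0.0236). Over 18 alternatives its adjusted p ran from 2.759e-05 to 0.221. With the pair of libraries that stood apart left out it was −0.29 and not called (adjusted p = 0.154). The ratio of Smad7 to Smad3 FPKM was 0.114, 0.168 and 0.176 in the KIRA6 replicates, against 0.286, 0.311 and 0.392 in the Vehicle replicates. These ratios do not depend on the scaling between libraries. They did not overlap (exact permutation test, two-sided, p = 0.1, the smallest possible). Smad3 lay higher and Smad7 lower with KIRA6 without overlap, which fixed this outcome, so the ratio adds no separate evidence.

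Smad6 (chromosome 9, 63860358 to 63929341), an inhibitor that acts mainly on the BMP branch, had 0.860, 5.19 and 5.20 FPKM in the KIRA6 replicates, against 0.210, 0.170 and 1.29 FPKM in the Vehicle replicates. KIRA6 replicates 2 and 3 lay well above the rest, and KIRA6 replicate 1 lay below Vehicle replicate 3. The log2 fold change of 1.9 ± 0.65 (SE) was larger than that of Tgfb3 but missed the threshold (limma adjusted p = 0.0809). It was called without KIRA6 replicate 1 (2.59, adjusted p = 0.0151), without Vehicle replicate 3 (2.36, adjusted p = 0.0452) and without both (3.05, adjusted p = 1.416e-05). Over 18 alternatives its adjusted p ran from 2.204e-06 to 0.237. The Vehicle values rest on 12, 9 and 77 fragments and the KIRA6 values on 59, 303 and 331.

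Promoter windows from RefSeq (build GRCm38.p6, 250 bases before to 50 after a transcript start) were searched for 7 of the 10 members, in 8 windows. This selection does not show that the members left out of it, Smad7 among them, lack a window. The windows are shown for Smad6 and Tgfb2, the members of largest uncalled log2 fold change, each with a motif match. The window of Tgfbr1, which also holds a match, is not shown. Matches on either strand were searched for GTCTAGAC, the palindrome to which SMAD3 and SMAD4 bind in vitro, and CAGACA, the CAGA box of TGF-beta responsive promoters. TGACGTCA, the cAMP response element, and TGANTCA, the AP-1 site, were searched as well, and the matches shown do not overlap another motif.
Smad6: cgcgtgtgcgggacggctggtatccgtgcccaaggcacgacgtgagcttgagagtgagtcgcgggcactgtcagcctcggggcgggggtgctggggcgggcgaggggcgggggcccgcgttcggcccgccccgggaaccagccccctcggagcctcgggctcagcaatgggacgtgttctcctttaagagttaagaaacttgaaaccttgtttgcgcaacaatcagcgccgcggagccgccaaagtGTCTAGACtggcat
Tgfb2: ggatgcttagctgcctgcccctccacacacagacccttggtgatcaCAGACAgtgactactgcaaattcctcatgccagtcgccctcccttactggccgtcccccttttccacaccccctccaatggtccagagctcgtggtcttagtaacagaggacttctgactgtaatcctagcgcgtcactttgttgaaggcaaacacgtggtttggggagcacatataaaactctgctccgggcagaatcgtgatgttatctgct
Both are 260 bases, from 250 before the start through base 10 of the transcript, at chr9:64022050-64022309 and chr1:186705980-186706239, both on the minus strand. Capitals in Smad6 mark GTCTAGAC, at −4 to 4 around the start, with no base 0. This motif was present in 0.213% of 32851 windows and in 1 of the 8 member windows. Capitals in Tgfb2 mark CAGACA at −204 to −199, a motif in 21% of all windows and in those of 2 members (Tgfb2 and Tgfbr1). TGACGTCA (1.79% of all windows) and TGANTCA (7.81%) were in none of the 8. The 8 hold no window of Smad7, so none of the 4 motifs was searched for there. A match is a run of letters and was not tested as a binding site.

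Skil (chromosome 3, 31149207 to 31176726), which encodes the SMAD co-repressor SnoN, had 7.03, 7.91 and 8.67 FPKM in the KIRA6 replicates, against 6.33, 6.22 and 4.98 FPKM in the Vehicle replicates. The groups did not overlap, and the log2 fold change of 0.40 ± 0.16 (SE) was not called (limma adjusted p = 0.109). With median-ratio scaling it was 0.23. Skil passed under 2 of 18 alternatives, whose adjusted p ran from 8.613e-05 to 0.3495.

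**Figure D3:**
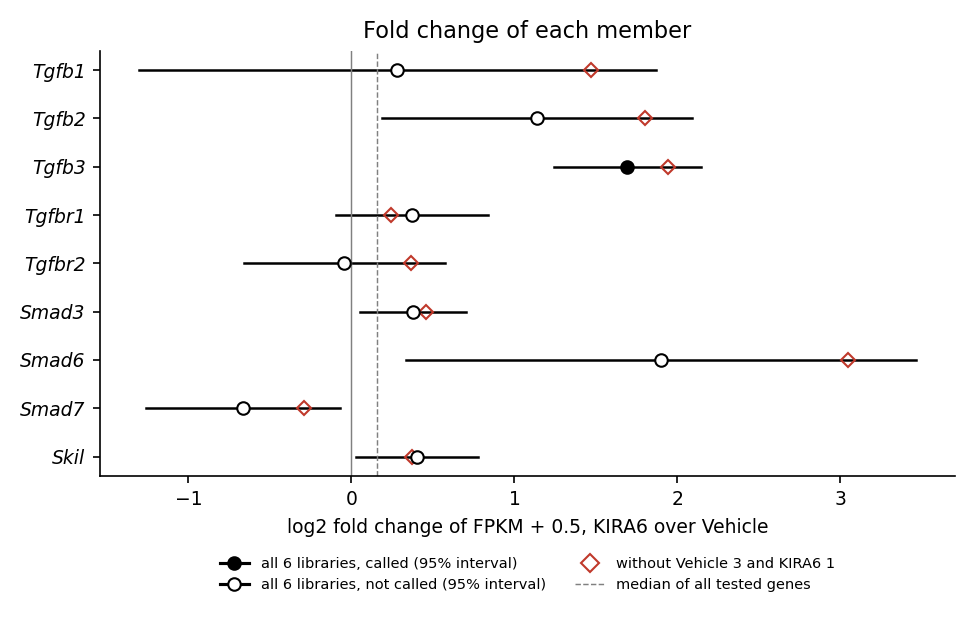
Log2 fold change of each tested member (KIRA6 over Vehicle, on log2 of FPKM + 0.5) with its unadjusted 95% interval, filled where called; diamonds leave out the pair of libraries that stood apart, and the dashed line is the median of all tested genes. Tgfb3 lies at 1.69 in all libraries and 1.94 without the pair, while Tgfb1 lies at 0.28 and 1.47.

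By level, the members with KIRA6 ran from Tgfb3 (33.1 ± 4.73 FPKM) through Smad3 (25.4 ± 2.2) and Tgfbr2 (17.8 ± 4.07) to Tgfb1 (8.62 ± 4.78), Tgfbr1 (8.23 ± 0.735) and Skil (7.87 ± 0.821). Below these stood Smad7 (3.89 ± 1.03), Smad6 (3.75 ± 2.50) and Tgfb2 (2.13 ± 0.920), with Bmp4 at 0 (SD, n = 3). With Vehicle, Smad3 (19.4 ± 1.82 FPKM) and Tgfbr2 (18.6 ± 5.77) stood first, followed by Tgfb3 (9.97 ± 2.12), Tgfb1 (7.50 ± 6.44), Smad7 (6.46 ± 1.70), Tgfbr1 (6.34 ± 1.44) and Skil (5.84 ± 0.750). Tgfb2 (0.730 ± 0.615) and Smad6 (0.557 ± 0.635) were the lowest above 0. The means of Tgfb1, Tgfbr1 and Skil lay close together in both groups, set against the spread of Tgfb1. Within libraries, Tgfbr1 exceeded Skil in every KIRA6 library but not in every Vehicle library. Tgfb3 stood first of the 10 by mean with KIRA6 and behind Smad3 and Tgfbr2 with Vehicle, where both exceeded it in every library.

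Vehicle replicate 3 was the highest of its group and KIRA6 replicate 1 the lowest of its group for 6 of the 9 members (Tgfb1, Tgfb2, Tgfb3, Tgfbr2, Smad6 and Smad7). This order held for 32.0% of all tested genes. Vehicle replicate 3 exceeded the mean of the other Vehicle libraries 6.79-fold for Smad6, 3.95-fold for Tgfb1, 3.84-fold for Tgfb2 and 1.42-fold for Tgfb3. KIRA6 replicate 1 was at 0.166, 0.273, 0.468 and 0.827 of the mean of the other KIRA6 libraries for these genes in the same order. The cause of the spread was not tested.

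The genes whose pattern over the 6 libraries was most like that of Tgfb3 were Xdh (r = 0.9998), Gstt3 (r = 0.9988) and Eif2ak3 (r = 0.9987), by Pearson's correlation of log2(FPKM + 0.5) among 10542 genes that averaged 1 FPKM or more. Of these genes 694 had r of at least 0.95. The 6 points share the split by treatment, so this is a description. Eif2ak3, which encodes the endoplasmic reticulum stress sensor PERK, had 3.33, 3.59 and 4.10 FPKM in the KIRA6 replicates, against 1.46, 1.49 and 1.79 FPKM in the Vehicle replicates.

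Of the other genes of the pathway, 130 in 7 lists, 68 were tested, of which 10 rose and 5 fell. Together 22.1% of the 68 were called, beside 23.6% of all genes tested. The median log2 fold change was 0.11, beside 0.16. Atoh8 and Itgb6 passed the filter only through their KIRA6 values, and without them 9 of 66 rose and 5 fell.

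Among 10 tested genes for storage and release of latent TGF-beta 1 rose, the integrin chain gene Itgb5, whose product pairs with the αv chain to bind the latency peptide. It averaged 40.5 ± 2.90 FPKM with KIRA6 and 18.2 ± 1.89 FPKM with Vehicle (SD, n = 3 each). The difference on the log2 scale was 1.14 ± 0.14 (SE, limma adjusted p = 0.00266). The list median was 0.62, and 0.71 without Itgb6, which passed the filter only through its KIRA6 values. Ltbp3 and Ltbp4, which encode latent TGF-beta binding proteins, split between libraries as Tgfb1 did. Ltbp3 had 5.02, 32.3 and 38.2 FPKM in the KIRA6 replicates and 5.32, 7.99 and 54.3 FPKM in the Vehicle replicates. Ltbp4 had 2.63, 32.95 and 41.0 FPKM in the KIRA6 replicates and 2.05, 3.73 and 40.2 FPKM in the Vehicle replicates. Both were chosen after their values were seen.

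Of 29 other ligands of the superfamily 17 were at 0 in all libraries and 4 were tested. Bmp7, a BMP ligand, fell to 2.93 ± 0.164 FPKM with KIRA6, against 4.61 ± 0.611 FPKM with Vehicle (SD, n = 3 each; log2 fold change −0.57, limma adjusted p = 0.0350). The call for Bmp7 ended when any 1 of the 6 libraries was left out, without the filter and with rescaling to TPM. Inhba, the activin A subunit, had 4.35 ± 1.05 FPKM with KIRA6 and 2.96 ± 0.188 FPKM with Vehicle (adjusted p = 0.139). The list median was −0.14. Of 11 tested receptors and co-receptors 1 rose, the activin type I receptor gene Acvr1b, at 4.56 ± 0.256 FPKM with KIRA6 and 2.41 ± 0.327 FPKM with Vehicle (log2 fold change 0.80, adjusted p = 0.0114). The call for Acvr1b ended without Vehicle replicate 2 and with quantile normalization. The co-receptor betaglycan, Tgfbr3, had 1.44 ± 0.412 FPKM with KIRA6 and 1.05 ± 0.523 FPKM with Vehicle (adjusted p = 0.396), in a list with a median of 0.36.

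Of 20 tested SMADs and intracellular regulators 1 fell, Strap, whose product binds the receptors and favours SMAD7. It averaged 48.2 ± 4.93 FPKM with KIRA6 and 88.4 ± 15.8 FPKM with Vehicle (log2 fold change −0.86, limma adjusted p = 0.0163). Leaving out KIRA6 replicate 2 or 3, or Vehicle replicate 1 or 2, ended the call. Smad2, the partner of SMAD3, had 4.80 ± 0.209 FPKM with KIRA6 and 6.13 ± 0.756 FPKM with Vehicle (adjusted p = 0.161). Smad4, the common SMAD, had 19.0 ± 3.49 FPKM with KIRA6 and 18.6 ± 2.47 FPKM with Vehicle (adjusted p = 0.957). The feedback inhibitor Pmepa1 had 21.9 ± 6.99 FPKM with KIRA6 and 21.1 ± 10.03 FPKM with Vehicle (adjusted p = 0.897), and the list median was −0.02. Of 4 tested extracellular antagonists 1 rose, Dand5, a nodal antagonist, at 1.32 ± 0.160 FPKM with KIRA6 and 0.693 ± 0.0929 FPKM with Vehicle (adjusted p = 0.0294, list median 0.18). Its call ended when any 1 library was left out and with median-ratio scaling or quantile normalization.

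**Figure D4:**
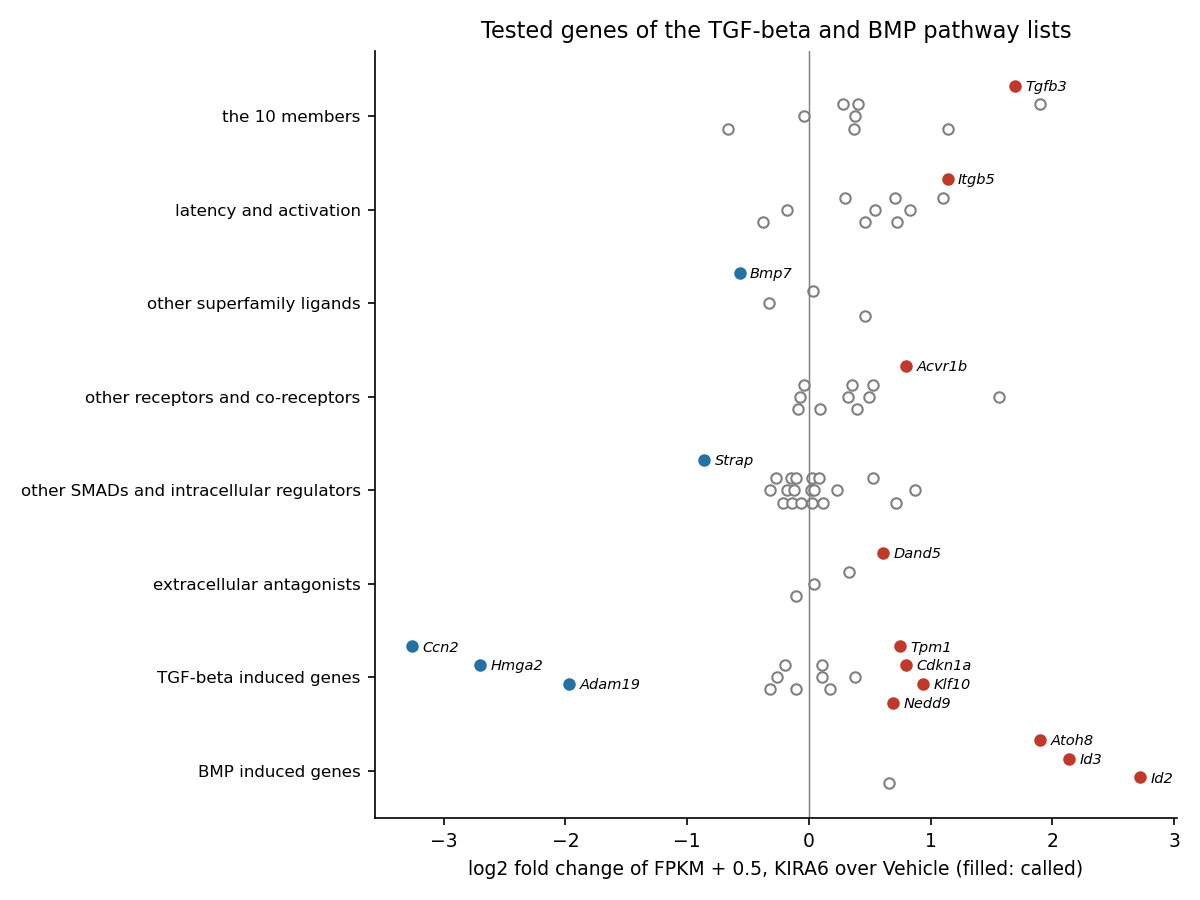
Log2 fold change (KIRA6 over Vehicle, on log2 of FPKM + 0.5) of every tested gene of the members and of the 7 pathway lists; filled and named points were called, red higher and blue lower with KIRA6. Called genes of the TGF-beta list lie on both sides, from Ccn2 (−3.26) to Klf10 (0.94), and those of the BMP list lie between Atoh8, the lowest, and Id2 (2.72).

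Genes known to be induced by TGF-beta went both ways. Of 15 tested 4 rose and 3 fell, which is 46.7% called, beside 23.6% of all tested genes (15.6% higher and 7.98% lower). The list median was 0.10. Ccn2, a matricellular protein gene, had 2.11, 2.36 and 3.49 FPKM in the KIRA6 replicates, against 22.6, 24.7 and 44.8 FPKM in the Vehicle replicates (log2 fold change −3.26 ± 0.30, SE, limma adjusted p = 0.00122). The chromatin protein gene Hmga2 fell to 13.1 ± 2.94 FPKM with KIRA6, against 89.2 ± 28.3 FPKM with Vehicle, and the metalloproteinase gene Adam19 to 1.49 ± 0.313 FPKM, against 7.43 ± 2.43 FPKM with Vehicle (adjusted p = 0.00138 and 0.00294). In the other direction the repressor gene Klf10 averaged 28.6 ± 3.45 FPKM with KIRA6 and 14.7 ± 1.93 FPKM with Vehicle (adjusted p = 0.00838). The CDK inhibitor gene Cdkn1a averaged 3.23 ± 0.204 FPKM with KIRA6 and 1.64 ± 0.0889 FPKM with Vehicle (adjusted p = 0.00819). Tpm1, a tropomyosin, averaged 184.0 ± 6.04 FPKM with KIRA6 and 109.9 ± 12.4 FPKM with Vehicle (adjusted p = 0.0118), and Nedd9, a scaffold protein gene, averaged 6.01 ± 0.733 FPKM with KIRA6 and 3.52 ± 0.160 FPKM with Vehicle. The call for Nedd9 ended in 5 of 18 alternatives. Tgfbi was at most 0.220 FPKM and not tested. Without KIRA6 replicate 2 the calls for Cdkn1a and Tpm1 ended, and quantile normalization ended that for Cdkn1a.

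Of 4 tested genes known to be induced by BMP 3 rose and 0 fell, beside 15.6% of all tested genes called higher and 7.98% lower. The list median log2 fold change was 2.02 (in limma the gene not called, Id1, was higher with KIRA6). Of the 4, Atoh8 passed the filter only through its KIRA6 values, and without it 2 of 3 rose, with a median of 2.14. Id2 and Id3, which encode inhibitors of basic helix-loop-helix factors, had the highest levels of the list. Id2 had 188.2, 139.3 and 123.7 FPKM in the KIRA6 replicates, against 27.9, 25.6 and 14.9 FPKM in the Vehicle replicates (log2 fold change 2.72 ± 0.28, SE, limma adjusted p = 0.00164). Id3 had 215.5, 177.2 and 160.0 FPKM in the KIRA6 replicates, against 45.2, 44.8 and 34.6 FPKM in the Vehicle replicates (2.14 ± 0.18, SE, adjusted p = 0.000954). In both genes KIRA6 replicate 1 was the highest and Vehicle replicate 3 the lowest of its group, the reverse of the order for Tgfb3 and an order held by 33.4% of all tested genes. Id1 had 56.0, 45.6 and 37.4 FPKM in the KIRA6 replicates, against 31.7, 31.7 and 23.8 FPKM in the Vehicle replicates, and narrowly missed the threshold (0.66 ± 0.20, SE, adjusted p = 0.0551). Atoh8, a basic helix-loop-helix factor, had 2.0, 1.05 and 1.31 FPKM in the KIRA6 replicates, against 0.040, 0 and 0 FPKM in the Vehicle replicates (adjusted p = 0.00200). An estimated 220 fragments with KIRA6 and 2 with Vehicle gave a ratio of 98.6, with an exact 95% interval of 27.0 to 819.5 for counting error only. These genes were called in every alternative that tested them, except Id1.

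**Figure D5:**
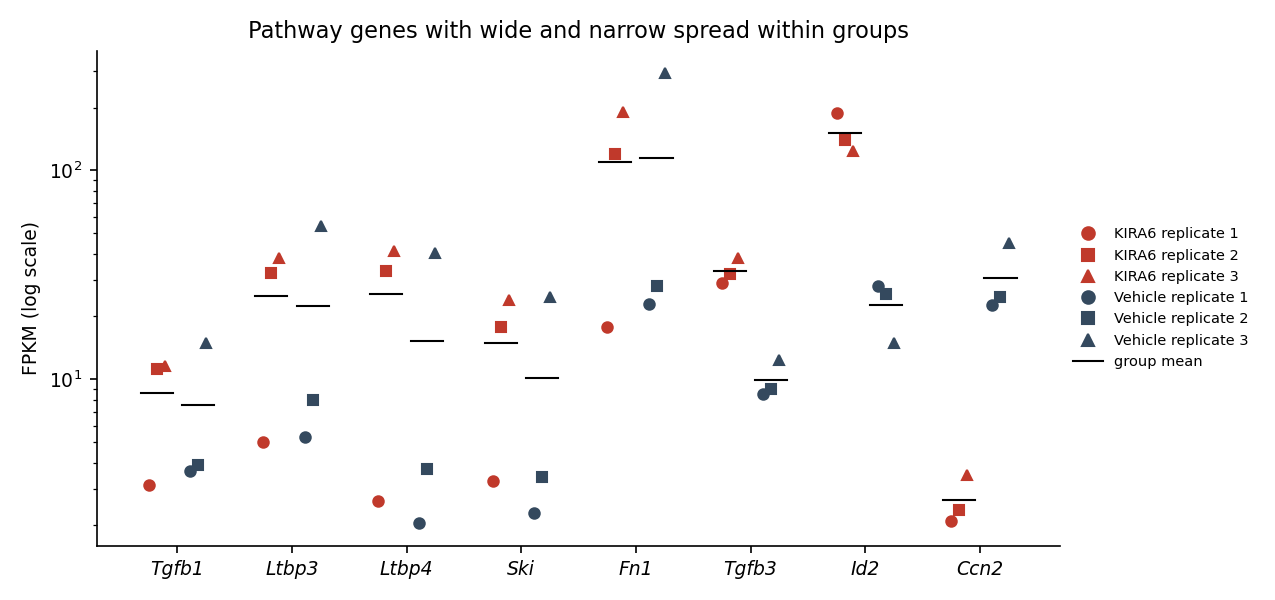
FPKM (log scale) in each library of pathway genes, chosen after their values were seen; red symbols are KIRA6, dark symbols Vehicle, shape gives the replicate and bars are group means. For Tgfb1, Ltbp3, Ltbp4, Ski and Fn1 KIRA6 replicate 1 lies with Vehicle replicates 1 and 2, while for Tgfb3, Id2 and Ccn2 the groups do not overlap.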

How the data were processed

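The authors deposited a table of FPKM to 2 decimals, with each gene's exonic length and GRCm39 coordinates. HISAT2 2.2.1 and HTSeq 0.6.1, cutadapt 1.9.1, the build GRCm39 and DESeq2 1.34.0 are named, without settings, in the submitters' processing notes. Per the labels' protocols, libraries were made from oligo(dT)-selected RNA and kept strand by the dUTP method. Depth was estimated from the steps between low values of short genes. In each library 100% of 410 to 510 checked values lay within 0.1 fragment of a whole number. It sets the 3-fragment limit, for counting error only.

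With limma 3.58.1 (R 4.3.3), log2(FPKM + 0.5) was modelled (KIRA6 against Vehicle, intensity trend, robust empirical Bayes, two-sided, Benjamini-Hochberg over 11778 genes averaging 0.5 FPKM or more). Adjusted p below 0.05 was called. Fold changes on this scale understate changes of low genes. On simulated data with each gene's own spread, the fit recovered 6% of 1.5-fold, 46% of 2-fold, 80% of 4-fold and 96% of 8-fold changes. A gene that was not called may therefore have changed. The simulation changed 50 genes per fold, drew spread independently for each gene and gave 119 calls, against 2783 in the data. Its rates may differ from the sensitivity of the real fit. Single ratios used exact permutation tests in scipy 1.17.1. Separate cultures are not stated in the labels: p-values measure only how these samples vary, possibly for technical reasons.

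The members, lists and tests were chosen with earlier results of these data known. Named are all members, every called gene of a list (of the TGF-beta induced list 3 in each direction, with Nedd9 added after its values were seen), some genes fixed by name whatever their result and the 3 most like Tgfb3, and others were chosen after their values were seen. Settings varied the pseudocount, filter, scaling, empirical Bayes, weights, replicate block, voom on estimated fragments and libraries left out. Leaving out Vehicle replicate 3 and KIRA6 replicate 1 together was chosen after seeing the data. A gene fixed by name and a marker are not reported here.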

Additional observations from a re-analysis of the deposited data

How the results depend on the processing

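The call for Tgfb3 held in all 18 alternatives. Among members, the 7 directions that turned belonged to Tgfb1 and Tgfbr2. Of 68 tested list genes 30 turned in at least 1 alternative, of which 0 were called in all libraries. Tgfb1 turned without KIRA6 replicate 3 (−0.014), Vehicle replicate 1 (−0.048) or Vehicle replicate 2 (−0.0054), in a range of −0.048 to 0.90 with 1 library left out. Tgfbr2 was at 0.13 without KIRA6 replicate 1, 0.19 without Vehicle replicate 3, 0.16 with library weights and 0.36 with both of those libraries left out, in a range of −0.20 to 0.19 with 1 left out. The cause was not tested. That last fit called 6610 genes, 7 members higher, and 36 and 8 pathway list genes higher and lower, and gave 3.71 percentage points for the Tgfb3 share. Library weights, whose estimation stopped before its tolerance was met, called 10003 genes, 8 members higher and 1 lower, and 43 and 16 list genes. Median-ratio scaling and quantile normalization each called 1 member lower, Smad7.

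With single libraries left out the main 2783 called genes became 1211 to 3392, the members called higher 1 to 3, and the list genes called higher 6 to 11 and lower 3 to 4. The Tgfb3 share difference ranged from 8.89 to 21.3 percentage points. The lowest counts of genes called came without KIRA6 replicate 2 (1211), Vehicle replicate 2 (1268), KIRA6 replicate 3 (1554) and Vehicle replicate 1 (1622).

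Same-numbered libraries of the groups deviated together for numbers 1 and 3 (correlations 0.762 and 0.738) but not 2 (−0.469). KIRA6 replicate 1 deviated nearly as much with Vehicle replicate 2 (0.713), so these values do not single out same-numbered pairs. Whether libraries of the same number were prepared together was not tested. KIRA6 replicate 2 deviated most like Vehicle replicate 3 (0.524). The replicate block called 4423 genes, 4 members higher (Tgfb3, Tgfb2, Smad3 and Smad6) and 1 lower (Smad7), and 17 list genes higher. The Vehicle values of Smad6 and Tgfb2 rest on few fragments, which limits their precision.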

Other observations

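Of the pathway list genes 36 lay above 0 but below the filter. Without the filter limma called 5 of them, 4 higher and 1 lower, which were chosen after their values were seen, and 10.4% of all genes. The activin antagonist gene Fst had 0.050, 0.110 and 0.220 FPKM in the KIRA6 replicates, against 0.440, 0.710 and 0.660 FPKM in the Vehicle replicates (limma adjusted p = 0.0322 without the filter). Smad9, a SMAD of the BMP branch, had 0.510, 0.400 and 0.640 FPKM in the KIRA6 replicates, against 0.090, 0.090 and 0.140 FPKM in the Vehicle replicates (adjusted p = 0.0228 in limma). Hey1, of the BMP list and also a Notch target, had 0.520, 0.570 and 0.770 FPKM in the KIRA6 replicates, against 0.080, 0.020 and 0.080 FPKM in the Vehicle replicates (adjusted p = 0.00973 in limma). Acta2, the smooth muscle actin gene of the TGF-beta list, had 0.620, 0.50 and 0.640 FPKM in the KIRA6 replicates, against 0.050, 0.170 and 0.170 FPKM in the Vehicle replicates (adjusted p = 0.0207 in limma). Amh, a ligand of the superfamily, had 0.060, 0.070 and 0.090 FPKM in the KIRA6 replicates and was listed at 0 in the Vehicle replicates (adjusted p = 0.0301 in limma). The KIRA6 values of Amh rest on an estimated 2, 2 and 3 fragments, no more than the 3 that a count of 0 allows.

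Fibronectin (Fn1) and the collagen IV chain gene Col4a1, matrix genes of the TGF-beta list, showed the split between libraries that Tgfb1 and its binding proteins showed. Fn1 had 17.8, 120.4 and 191.0 FPKM in the KIRA6 replicates and 22.9, 27.9 and 291.8 FPKM in the Vehicle replicates. Col4a1 had 7.07, 32.5 and 47.8 FPKM in the KIRA6 replicates and 10.2, 19.1 and 85.7 FPKM in the Vehicle replicates. The SMAD co-repressor gene Ski had 3.27, 17.8 and 24.0 FPKM in the KIRA6 replicates and 2.30, 3.40 and 24.8 FPKM in the Vehicle replicates.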
